A study of Arabidopsis thaliana with 14 samples.

Results

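The 4 CLASSY genes of Arabidopsis thaliana, CLSY1 (AT3G42670), CLSY2 (AT5G20420), CLSY3 (AT1G05490) and CLSY4 (AT3G24340), and SHH1 (AT1G15215) were read by gene identifier from gene count files of 14 poly(A)+ RNA libraries. They are 5 of the 37336 gene identifiers counted, and all 5 passed the filter on low counts in every comparison. CLSY proteins are chromatin remodelers of the SNF2 type, and SHH1 is a homeodomain protein that reads methylated lysine on histone H3. Both help bring RNA polymerase IV to chromatin, where its transcripts are made double-stranded by RDR2, cut into small RNAs by DCL3 and used to guide DNA methylation (RNA-directed DNA methylation). As background, CLSY1 and CLSY2 act with SHH1 mainly on chromosome arms, CLSY3 and CLSY4 act without it mainly near the centromeres, and CLSY3 is known as the main family member of ovules.

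All plants were Arabidopsis of the Columbia background, grown at 22 °C under 16-h days, and the tissue was immature flower buds of floral stages 1 to 12. Plants carried either the aly1-2 allele of ALY1, which encodes an adaptor protein of messenger RNA export, or were wild-type Columbia; the labels do not state the zygosity of the mutant. Total RNA was represented by 3 aly1-2 and 3 wild-type libraries, nuclear RNA by 2 and 2, and cytoplasmic RNA by 2 and 2. The labels name no rescue line, no other aly1 allele and no separate plants or cultures, so p-values measure the spread between these libraries, which may be in part technical.

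Library totals ran from 7230995 to 12736374 counted reads. Ribosomal RNA genes took 49.44 to 60.5% of cytoplasmic reads and 3.64 to 6.92% of total and nuclear reads, so the cytoplasmic libraries were the shallowest for messenger RNA. Wild-type nuclear replicate 1 stood apart in detecting 29417 genes, against 27009 to 27650 in the other nuclear libraries. ALY1 checked the genotype labels: its mean level in total RNA was 17.4 ± 3.3 CPM for aly1-2 libraries, against 112 ± 7.27 CPM for wild-type ones (SD, n = 3 each). Its groups did not overlap in nuclear or cytoplasmic RNA either, beside 27.1% and 35.2% of all genes tested there. The ALY1 log2 fold change, aly1-2 over wild type, was -2.99 in nuclear RNA (adjusted p = 0.0121 by edgeR). In cytoplasmic RNA it was -1.52 and was not called (adjusted p = 0.369 by edgeR). CPM is the count of a gene per 1000000 reads of library size, after scaling of the libraries to each other. All 6 floral bud markers (AG, AP3, PI, SEP3, AP1 and LFY) had reads in every group.

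The gene models were taken from RefSeq for the TAIR10.1 assembly, while the count files hold no coordinates. CLSY1 lies at chr3:14755798-14760629 and CLSY4 at chr3:8831935-8835829, CLSY2 at chr5:6898790-6904242 and CLSY3 at chr1:1618504-1623489, all on the minus strand. SHH1 lies at chr1:5238044-5240051 on the plus strand, and 23 bp at its end overlap AT1G15220, a gene on the opposite strand. Merged exons span 4132 bp in CLSY1, 4214 bp in CLSY2, 4735 bp in CLSY3, 3656 bp in CLSY4 and 1208 bp in SHH1. The overlapping AT1G15220 averaged 7.2 CPM in aly1-2 and 6.38 CPM in wild-type total RNA, and no source used here states whether reads were counted by strand, so SHH1 values are less certain to that extent.

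Coding sequence identity bears on whether reads of 1 family member could be counted for another, so the stretches most alike are shown. CLSY1 and CLSY2 were identical at 2966 of 3708 aligned coding bases (80.0%), CLSY3 and CLSY4 at 67.0%, and the other 4 pairs at 62.4 to 65.1%. The longest identical stretch was 35 bases between CLSY1 and CLSY2 and 15 bases between CLSY3 and CLSY4. These stretches are shown in capitals, 5′ to 3′ on the coding strand, with flanking bases of the same exon in lower case; the CLSY1 line covers chr3:14758178-14758245, the CLSY2 line chr5:6901271-6901338, the CLSY3 line chr1:1620093-1620147 and the CLSY4 line chr3:8833302-8833356, all on the minus strand of TAIR10.1.
CLSY1: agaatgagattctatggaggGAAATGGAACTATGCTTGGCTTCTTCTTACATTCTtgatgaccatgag
CLSY2: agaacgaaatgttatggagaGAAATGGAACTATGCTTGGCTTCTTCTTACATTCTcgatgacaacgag
CLSY3: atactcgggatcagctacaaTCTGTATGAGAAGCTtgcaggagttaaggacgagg
CLSY4: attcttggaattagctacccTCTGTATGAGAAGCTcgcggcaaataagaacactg
Reads longer than 35 bases that lie in coding sequence therefore meet at least 1 mismatch between any 2 of the 4 genes. Of the 70 member values, 5 were not whole numbers: 2 for CLSY2, 1 each for CLSY1, CLSY3 and SHH1, and 0 for CLSY4.

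In total RNA of both genotypes, mean levels per kb of exon ran from high to low in the order SHH1, CLSY3, CLSY1, CLSY2 and CLSY4. For aly1-2 they were 15.8 ± 1.22 CPM per kb for SHH1, 11.8 ± 2.8 for CLSY3, 7.56 ± 1.04 for CLSY1, 0.814 ± 0.0617 for CLSY2 and 0.66 ± 0.0225 for CLSY4 (SD, n = 3), and of neighbours in that order SHH1 and CLSY3 overlapped. For wild type they were 12.1 ± 1.47, 8.4 ± 1.59, 5.62 ± 0.504, 1.12 ± 0.226 and 0.646 ± 0.0925 CPM per kb in the same order (SD, n = 3), and no neighbours overlapped. Protein-coding genes with reads were ranked by level per kb (25087 genes in aly1-2 and 24749 in wild type). SHH1 stood at percentile 74.2 in aly1-2 and 68.0 in wild type, and CLSY4 at percentile 21.5 in aly1-2 and 20.4 in wild type. In nuclear RNA CLSY3 led, with 22.6 and 34.4 CPM per kb in aly1-2 and 16.0 and 21.6 CPM per kb in wild type, above every SHH1 value of the same genotype (12.3 and 13.3 in aly1-2, 10.9 and 15.6 in wild type). In cytoplasmic RNA SHH1 (7.7 and 6.25 CPM per kb) overlapped CLSY3 (7.78 and 3.76) in aly1-2, and in wild type SHH1, with 4.56 and 8.86 CPM per kb, lay above CLSY3 at 3.4 and 2.41.

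**Figure D1:**
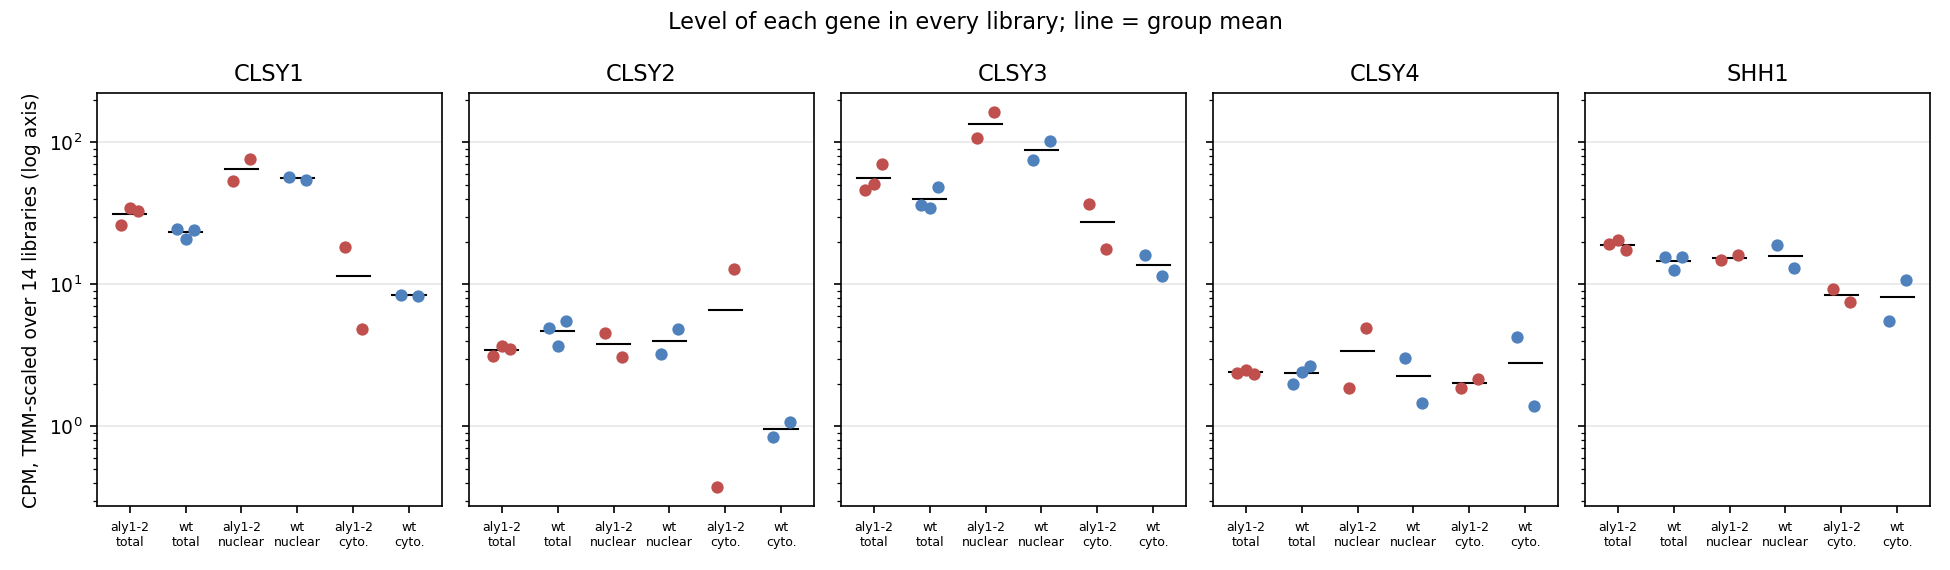
CPM (log axis) of each gene in every library, by group on the horizontal axis, with aly1-2 in red and wild type in blue; points are libraries and lines are group means. Within each genotype CLSY1 and CLSY3 sit highest in nuclear RNA and lowest in cytoplasmic RNA, and the aly1-2 cytoplasmic CLSY2 points lie apart, at 0.372 and 12.9 CPM.

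Within the CLSY family, CLSY3 and CLSY1 supplied most of the level per kb in total and nuclear RNA. In total RNA CLSY3 held 56.3 ± 4.72% of the summed level of aly1-2 libraries and 53.0 ± 3.15% of that of wild-type libraries, and CLSY1 held 36.5 ± 3.91% for aly1-2 and 35.8 ± 3.24% for wild type (SD, n = 3 each). The CLSY2 share ran from 3.38 to 4.28% in aly1-2 and from 6.29 to 7.57% in wild type, with no overlap. The CLSY4 share ran from 2.63 to 3.73% in aly1-2 and from 3.57 to 4.77% in wild type, which overlapped. A share also depends on the other members: CLSY1 averaged 31.2 CPM in aly1-2 and 23.2 CPM in wild type, and CLSY3 55.9 and 39.8 CPM. The CLSY2 level itself ran from 3.15 to 3.66 CPM in aly1-2 and from 3.68 to 5.55 CPM in wild type. In nuclear RNA CLSY2 and CLSY4 were again the minor members in each library, with CLSY2 at 1.32 and 2.91% in aly1-2 and 2.43 and 3.16% in wild type. Cytoplasmic shares varied more, with CLSY2 at 0.69 and 35.7% in aly1-2 and 2.95 and 5.04% in wild type, and CLSY4 at 3.98 and 6.87% in aly1-2 and 17.0 and 7.49% in wild type. The family make-up is a description and was not tested; the cytoplasmic shares rest on 154 and 70 CLSY reads in aly1-2 and on 70 and 64.1 in wild type.

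**Figure D2:**
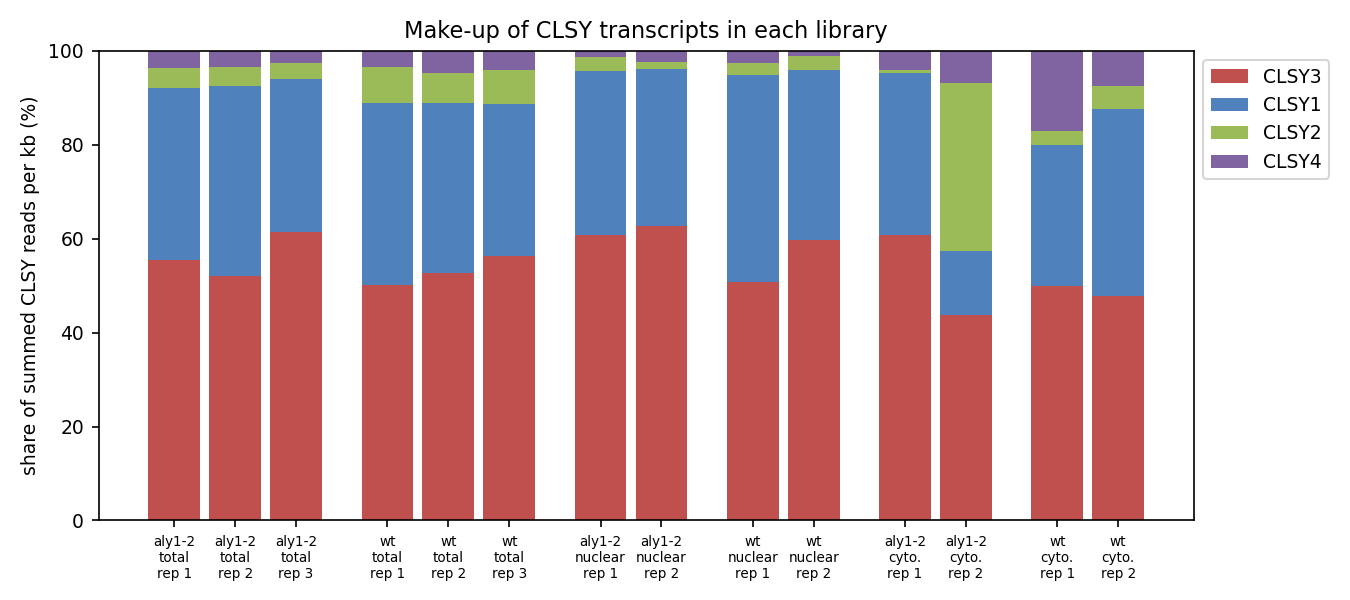
Share of the summed CLSY level per kb (%, vertical axis) held by each family member in every library. CLSY3 and CLSY1 fill most of each total and nuclear bar, and aly1-2 cytoplasmic replicate 2 differs from the rest with a CLSY2 share of 35.7%.

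Total RNA of aly1-2 buds held more CLSY1, CLSY3 and SHH1 and less CLSY2 than wild type by their means, and none of the 5 genes passed the test. Across all genes, 97 of 20431 (0.475%) were called by edgeR's quasi-likelihood test at a Benjamini-Hochberg adjusted p below 0.05, and 0 of the 5 genes were; at an unadjusted p below 0.05 there were 3 (CLSY1, CLSY3 and SHH1), beside 2977 genes of the whole table. DESeq2 also called 0 of the 5. Groups did not overlap for 3 of the 5 genes, beside 20.1% of all genes tested.

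CLSY1 had 26.4, 34.4 and 32.9 CPM in aly1-2, against 24.6, 20.8 and 24.2 CPM in wild type. Every aly1-2 value was above every wild-type value, and the log2 fold change was 0.42 (SE 0.13, 95% interval 0.12 to 0.72, adjusted p = 0.2 by edgeR). Without aly1-2 total replicate 1 the CLSY1 difference passed, at 0.52 (adjusted p = 0.0351 by edgeR), in a fit that called 1639 genes instead of 97.

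CLSY3 had 46.0, 50.7 and 70.9 CPM in aly1-2, against 36.4, 34.6 and 48.4 CPM in wild type. The groups overlapped, since wild-type replicate 3 was above aly1-2 replicate 1, and the log2 fold change was 0.48 (SE 0.19, adjusted p = 0.292 by edgeR). SHH1 had 19.1, 20.4 and 17.5 CPM in aly1-2, against 15.7, 12.6 and 15.7 CPM in wild type, with no overlap and a log2 fold change of 0.37 (SE 0.13, adjusted p = 0.261 by edgeR).

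CLSY2 went the other way, with 3.15, 3.66 and 3.48 CPM in aly1-2, against 4.89, 3.68 and 5.55 CPM in wild type. The highest aly1-2 value, 3.66, lay just under the lowest wild-type value, 3.68, and the log2 fold change was -0.46 (SE 0.24, interval -1 to 0.08, adjusted p = 0.414 by edgeR). CLSY4, the scarcest member, had 2.38, 2.51 and 2.35 CPM in aly1-2, against 2.0, 2.42 and 2.67 CPM in wild type, a log2 fold change of 0.02 (interval -0.58 to 0.63) on 25 to 31 reads per aly1-2 library and 18 to 26 per wild-type library. The 5 log2 fold changes had a median of 0.37, that of SHH1, beside 0.01 over all genes.

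Marker genes of bud parts are given beside these values. The summed level of the 6 bud markers ran from 795 to 836 CPM in aly1-2 and from 614 to 700 CPM in wild-type total RNA, that of 6 ovule markers from 152 to 187 CPM in aly1-2 and from 129 to 144 CPM in wild type, and that of 9 tapetum markers from 118 to 141 CPM in aly1-2 and from 104 to 126 CPM in wild type, with no marker at 0 in either group. The bud and ovule sums did not overlap between genotypes and the tapetum sums did. edgeR called 0 of the tested markers in total RNA and DESeq2 called 1, AG. An unadjusted p below 0.05 was found for 2977 of all 20431 genes. Of the markers, 4 of 6 bud, 3 of 6 ovule and 2 of 7 tested tapetum ones were below it, all higher in aly1-2. Their part in the CLSY1, CLSY3 and SHH1 differences was not tested, and in bulk buds more cells of a type and more RNA per cell cannot be told apart. In nuclear RNA the bud sum ran from 1020 to 1030 CPM in aly1-2 and from 779 to 902 CPM in wild type without overlap. SEP3 was its largest part, at a mean of 688 CPM in aly1-2 and 524 CPM in wild type. PI had a lower mean in aly1-2 (123 against 141 CPM), and the groups of AP3, PI, AP1 and LFY overlapped. The nuclear ovule sum (173 to 242 CPM in aly1-2, 181 to 182 CPM in wild type) and tapetum sum (127 to 158 CPM in aly1-2, 112 to 161 CPM in wild type) overlapped. In cytoplasmic RNA the ovule sum (256 to 287 CPM in aly1-2, 170.0 to 199 CPM in wild type) did not overlap. SHP1 was its largest part, at a mean of 189 CPM in aly1-2 and 103 CPM in wild type. BEL1 (14.4 against 15.4 CPM) and STK (15.6 against 19.1 CPM) had lower means in aly1-2. The cytoplasmic tapetum sum (73.3 to 91.1 CPM in aly1-2, 58.8 to 64.4 CPM in wild type) did not overlap, with TDF1 at 0 in aly1-2. A9 was the largest part of that sum, at a mean of 20.3 CPM in aly1-2 and 14.5 CPM in wild type. DYT1 was lower in aly1-2 without overlap (2.7 to 4.09 against 5.18 to 6.36 CPM). The MS2 means were close (10.8 against 10.3 CPM). The cytoplasmic bud sum (991 to 1140 CPM in aly1-2, 887 to 1160 CPM in wild type) did overlap. edgeR and DESeq2 called 0 of these markers between genotypes in either fraction. At an unadjusted p below 0.05 there were 0 in nuclear RNA, beside 474 of all 20971 genes. In cytoplasmic RNA there was 1, SHP1, beside 1907 of all 20971 genes. VGD1, a pollen gene, was at 426 to 1930 CPM in aly1-2 and 714 to 1080 CPM in wild-type total RNA, and CRA1, a seed storage gene, at 4.31 to 5.58 CPM in aly1-2 and 0 to 1.38 CPM in wild-type cytoplasmic RNA.

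Nuclear and cytoplasmic RNA gave the same genotype comparison in 8 libraries fitted together. In nuclear RNA 8 of 20971 genes (0.0381%) and 0 of the 5 genes were called by edgeR's quasi-likelihood test, with 0 of the 5 at an unadjusted p below 0.05. DESeq2 called 0 of the 5 as well. Groups did not overlap for 1 of the 5, beside 27.1% of all genes.

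CLSY3 was that gene, with 107 and 163 CPM in aly1-2 nuclei, against 75.6 and 102 CPM in wild-type nuclei, a log2 fold change of 0.63 (SE 0.38, interval -0.19 to 1.44, adjusted p = 1 by edgeR). CLSY1 had 53.8 and 76.1 CPM in aly1-2, against 57.5 and 53.9 CPM in wild type (log2 fold change 0.25, SE 0.42). The other 3 had log2 fold changes of -0.05 (CLSY2, SE 1), 0.63 (CLSY4, SE 0.9) and -0.02 (SHH1, SE 0.46), and their groups overlapped.

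In cytoplasmic RNA 3 genes of 20971 (0.0143%) and 0 of the 5 were called by edgeR's quasi-likelihood test, and 1 of the 5, CLSY3, had an unadjusted p below 0.05, beside 1907 genes of the whole table; DESeq2 called 0 of the 5. Groups did not overlap for 1 of the 5, CLSY3, beside 35.2% of all genes. CLSY3 had 36.8 and 17.8 CPM in aly1-2, against 16.1 and 11.4 CPM in wild type (log2 fold change 0.95, SE 0.43, interval 0.04 to 1.87, adjusted p = 0.541 by edgeR). CLSY1 split within aly1-2, at 18.2 and 4.85 CPM, against 8.47 and 8.29 CPM in wild type, and its log2 fold change of 0.45 became -0.78 without aly1-2 cytoplasmic replicate 1.

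CLSY2 had the largest cytoplasmic value of the 5, a log2 fold change of 2.7 (SE 1.26, interval -0.02 to 5.43, adjusted p = 0.554 by edgeR). It rested on 24 reads in aly1-2 cytoplasmic replicate 2 (12.9 CPM), against 1 read in replicate 1 (0.372 CPM) and 2 and 3.1 reads in wild type (0.847 and 1.07 CPM). Without that library the log2 fold change was -1.29 (adjusted p = 0.8 by edgeR). CLSY4 had 4 to 10 reads per cytoplasmic library and SHH1 13 to 31, with log2 fold changes of -0.52 (SE 1.05) and 0.01 (SE 0.52).

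**Figure D3:**
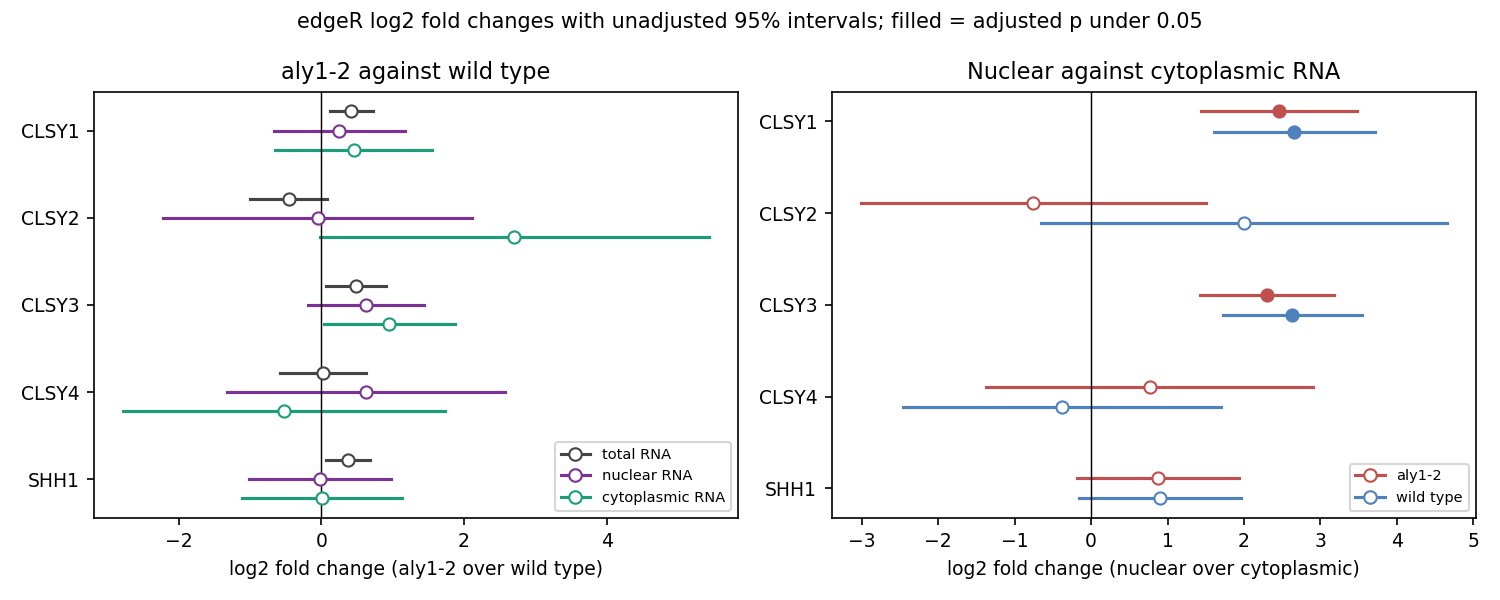
Log2 fold changes (horizontal axis) with unadjusted 95% intervals for the 5 genes, aly1-2 over wild type on the left in 3 kinds of RNA and nuclear over cytoplasmic RNA on the right in each genotype; filled points passed an adjusted p of 0.05. No genotype comparison is filled, while CLSY1 and CLSY3 are filled in aly1-2 (2.46 and 2.3) and in wild type (2.66 and 2.63).

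CLSY1 and CLSY3 transcripts were several-fold higher in nuclear than in cytoplasmic RNA in both genotypes. Of the 5 genes, 2 were called higher in nuclear RNA in aly1-2 and 2 in wild type by edgeR's quasi-likelihood test, beside 11.1% of all 20971 genes in each genotype. Levels are relative to the messenger RNA of each fraction and do not give the number of molecules in a cell.

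In aly1-2, CLSY1 had 53.8 and 76.1 CPM in nuclear RNA, against 18.2 and 4.85 CPM in cytoplasmic RNA, 5.51-fold higher (log2 fold change 2.46, SE 0.47, adjusted p = 0.00417 by edgeR). In wild type it had 57.5 and 53.9 CPM in nuclear RNA, against 8.47 and 8.29 CPM in cytoplasmic RNA, 6.32-fold higher (2.66, SE 0.49, adjusted p = 0.00303 by edgeR). The nuclear values were all above the cytoplasmic ones.

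CLSY3 was 4.93-fold higher in nuclear RNA of aly1-2 (107 and 163 CPM, against 36.8 and 17.8 CPM in cytoplasmic RNA; log2 fold change 2.3, SE 0.41, adjusted p = 0.00256 by edgeR). In wild type it was 6.19-fold higher (75.6 and 102 CPM, against 16.1 and 11.4 CPM; 2.63, SE 0.42, adjusted p = 0.00149 by edgeR). Both genes were called in each of 8 fits that left out 1 library, with adjusted p up to 0.0333 (CLSY1) and 0.0376 (CLSY3) in aly1-2 and up to 0.0426 (CLSY1) and 0.0321 (CLSY3) in wild type by edgeR. The size in aly1-2 depended on the cytoplasmic libraries: the log2 fold change was 3.75 for CLSY1 and 2.93 for CLSY3 without aly1-2 cytoplasmic replicate 1, and 1.85 for CLSY1 and 1.88 for CLSY3 without replicate 2.

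SHH1 had 14.8 and 16.1 CPM in nuclear RNA of aly1-2, against 9.3 and 7.55 CPM in cytoplasmic RNA (log2 fold change 0.87, SE 0.49, interval -0.19 to 1.94, adjusted p = 0.23 by edgeR). In wild type it had 18.8 and 13.1 CPM, against 5.51 and 10.7 CPM (0.9, SE 0.49, adjusted p = 0.213 by edgeR). Neither pair overlapped. The wild-type difference passed in a fit of all 14 libraries (0.96, adjusted p = 0.0349 by edgeR), which called 7785 genes there in either direction.

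CLSY2 had a log2 fold change of -0.76 in aly1-2 (SE 1.05, adjusted p = 0.645 by edgeR) and 2 in wild type (SE 1.23, adjusted p = 0.271 by edgeR), and the first turned to 3.29 without aly1-2 cytoplasmic replicate 2. CLSY4 had 0.77 in aly1-2 (SE 0.99) and -0.38 in wild type (SE 0.97), with overlapping groups. Groups did not overlap for CLSY1, CLSY3 and SHH1 in aly1-2 and for those and CLSY2 in wild type, all nuclear above cytoplasmic, beside 35.5% and 35.3% of all genes in that direction.

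The nuclear to cytoplasmic fold was larger in longer genes over the whole table. Genes of 4 to 5 kb, the class of CLSY1, CLSY2 and CLSY3, had a median log2 fold change of 1.02 in aly1-2 and 1.08 in wild type, with 30.9% and 31.2% called higher in nuclear RNA. Genes of 1 to 2 kb, the class of SHH1, had medians of -0.12 in aly1-2 and -0.19 in wild type, and the median over all genes was 0.11 in aly1-2 and 0.05 in wild type. CLSY1 and CLSY3 lay above the upper quartile of their length class, 1.8 in aly1-2 and 1.87 in wild type. Spearman's rho between exonic length and the fold over 20772 genes was 0.21 in aly1-2 and 0.2 in wild type, a description across genes that share their libraries. The part of length in the CLSY1 and CLSY3 values was not tested.

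**Figure D4:**
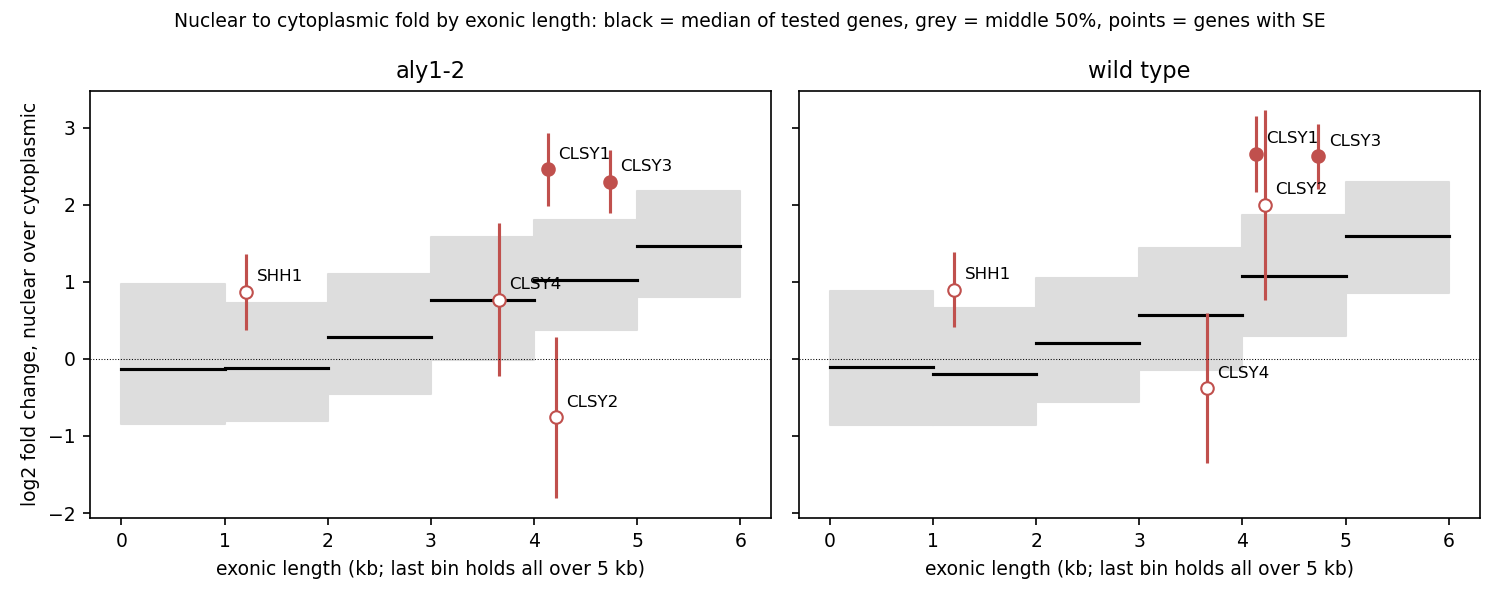
Nuclear over cytoplasmic log2 fold change (vertical axis) against exonic length (kb), with the median (black) and middle 50% (grey) of all tested genes in each length class and the 5 genes as points with SE, filled where called. CLSY1 and CLSY3 lie above the grey band of 4 to 5 kb genes, whose medians are 1.02 in aly1-2 and 1.08 in wild type.

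The nuclear to cytoplasmic fold of the 5 genes was not shown to differ between the genotypes. The difference, aly1-2 minus wild type, was -0.2 for CLSY1 (interval -1.62 to 1.22), -0.33 for CLSY3 (-1.55 to 0.89), -0.03 for SHH1 (-1.53 to 1.47), -2.75 for CLSY2 (-6.24 to 0.74) and 1.15 for CLSY4 (-1.84 to 4.13), all on the log2 scale. edgeR's quasi-likelihood test called 0 of the 5 and 0 of 20971 genes (0%), with 0 of the 5 and 705 of all genes at an unadjusted p below 0.05, and DESeq2 called 0 genes. Each interval reaches past 1 log2 unit in at least 1 direction. Without aly1-2 cytoplasmic replicate 1 the CLSY1 difference was 1.01, and without replicate 2 the CLSY2 difference was 1.22.

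The factors that act with the CLSY proteins were read as 4 lists. Of all 20431 genes tested in total RNA, edgeR called 0.475%, and 2977 had an unadjusted p below 0.05. Groups did not overlap for 20.1% of all genes tested there. Of 8 genes for polymerase IV and small RNA production, 0 were called between aly1-2 and wild type in total RNA by edgeR or DESeq2 (2 at an unadjusted p below 0.05; median log2 fold change 0.01), and the polymerase IV subunit NRPD1 had -0.04, the RNA polymerase RDR2 -0.07 and the SHH1 relative SHH2 -0.3. The other 5 had positive values, and the 2 at an unadjusted p below 0.05, named after their values were seen, were the polymerase subunit genes NRPD2 (0.36, SE 0.11, adjusted p = 0.216 by edgeR) and NRPD4 (0.4, SE 0.12, adjusted p = 0.194 by edgeR), both without overlap. Of 14 genes for polymerase V and the methylation step, 1 was called by edgeR and by DESeq2 (2 at an unadjusted p below 0.05, median log2 fold change -0.03). It was AGO9, an Argonaute of ovules, with 123 ± 9.22 CPM in aly1-2 and 74.8 ± 6.09 CPM in wild type (log2 fold change 0.72, SE 0.1, adjusted p = 0.0357 by edgeR). AGO9 lost its call without any wild-type replicate or aly1-2 replicate 2 or 3 (adjusted p up to 0.191 by edgeR), with the replicate block (0.0985) and with all 14 libraries in 1 fit (0.155). The other gene at an unadjusted p below 0.05 was DRM2, also named after its values were seen. DRM2 was lower in aly1-2 without overlap (-0.41, SE 0.15, adjusted p = 0.27 by edgeR). It had -0.71 (SE 0.43) in nuclear and -0.9 (SE 0.46) in cytoplasmic RNA. Of 7 genes for the DNA and histone methylation that CLSY recruitment is known to depend on, 0 were called by edgeR or DESeq2 and 0 had an unadjusted p below 0.05 (median 0.04).

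Of 4 genes silenced or set by DNA methylation, 3 were tested in total RNA. The silenced F-box gene SDC rose (log2 fold change 3.65, SE 0.42, adjusted p = 0.0146 by edgeR; 143 reads in aly1-2 and 9 in wild type), a call lost without wild-type replicate 2 or 3 or aly1-2 replicate 2 (adjusted p up to 0.0957 by edgeR) or with the replicate block (0.0613). The demethylase gene ROS1, whose transcript depends on methylation near its start, fell (-3.65, SE 0.25, adjusted p = 0.000997 by edgeR), also in each of 6 fits without 1 library, and QQS had -0.4 (SE 0.42). In nuclear RNA ROS1 was the only gene of the 4 lists that was called by edgeR or DESeq2 (-3.37, SE 0.44, adjusted p = 0.0123 by edgeR, but 0.0826 at most without a wild-type cytoplasmic replicate). In cytoplasmic RNA both tools called 0 genes of the lists, and 3 of the polymerase V list (DMS3, AGO4 and AGO9) and ROS1 had an unadjusted p below 0.05, beside 1907 of all 20971 genes. SDC and ROS1 were known from these libraries when the lists were made.

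Several of these factors were also higher in nuclear than in cytoplasmic RNA. Of the polymerase V list, 4 of 14 were called higher in nuclear RNA in aly1-2 and the same 4 in wild type, beside 11.1% of all genes in each genotype: NRPE1, SPT5L, AGO4 and AGO9. Their log2 fold changes in aly1-2 were 2.39, 2.22, 1.86 and 2.32, and in wild type 2.49, 2.07, 2.42 and 2.47, in that order. The share of all genes called higher in nuclear RNA rose with exonic length. It was 22.2% in aly1-2 and 20.8% in wild type for genes of 3 to 4 kb. For genes of 4 to 5 kb it was 30.9% and 31.2%, and for genes over 5 kb 51.8% in each genotype. The part of length in the calls of the list genes was not tested. NRPE1, the largest subunit of polymerase V, lost its call without aly1-2 nuclear replicate 2 or cytoplasmic replicate 1 in aly1-2, and without wild-type nuclear replicate 2 or either cytoplasmic replicate in wild type. Of the polymerase IV list, RDM4 was called in aly1-2 (2.06) and in wild type (2.57), the first not without aly1-2 cytoplasmic replicate 2 (adjusted p = 0.0575 by edgeR). DCL3 was called in wild type (1.79), not in 6 of 8 fits without 1 library, and had 0.94 in aly1-2. Of the remaining lists, MET1 was called in aly1-2 (2.06), and SUVH4 (1.16) and ROS1 (2.86) in wild type, MET1 and SUVH4 not in every fit without 1 library. No gene of the 4 lists was called lower in nuclear RNA in either genotype. The polymerase IV list had median log2 fold changes of 0.66 in aly1-2 and 0.81 in wild type, the polymerase V list 0.38 in aly1-2 and -0.08 in wild type, and all genes 0.11 in aly1-2 and 0.05 in wild type.

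Over the 14 libraries, log2(CPM + 1) of CLSY1 and CLSY3 had a Pearson correlation of 0.95, CLSY1 and SHH1 had 0.75, and CLSY1 and CLSY2 had 0.09. The points share fractions and genotypes, so these values are descriptions. In aly1-2 cytoplasmic replicate 2 CLSY2 had its highest value (12.9 CPM, on 24 reads) and CLSY1 its lowest (4.85 CPM). The part of that library in the 0.09 was not tested. The gene most like CLSY1 was YDA (r = 0.99), the one most like CLSY3 AT2G32910 (0.984), and the one most like SHH1 AT3G42950 (0.957), among about 16408 genes of at least 5 CPM. CLSY1 had 450 genes and CLSY3 469 genes above a correlation of 0.9, SHH1 122, CLSY2 5 and CLSY4 0.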

How the data were processed

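Poly(A)+ RNA from total (6 libraries), nuclear and cytoplasmic (8 libraries) bud extracts was sequenced with a directional kit, per the labels' protocols. Reads were aligned with STAR 2.5.1b and counted with featureCounts (Subread 1.6.1) against TAIR10, per the submitters' processing notes. The deposited gene files hold estimated counts, 86.4 to 92.7% of them whole numbers in a library; strand and the sharing of reads between genes are not given in the sources used here. Transposable element files were not used here.

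Estimated counts were rounded and tested with edgeR 4.0.16 (R 4.3.3): filterByExpr (minimum count 10, total 15), TMM scaling, quasi-likelihood F tests and Benjamini-Hochberg adjustment over all genes, at 0.05. The 6 total libraries formed 1 fit and the 8 fraction libraries another, each with 4 residual degrees of freedom. CPM for display was TMM-scaled over all 14 libraries, with the 6 total libraries as the base, and divided by merged exon length from TAIR10.1 for levels per kb; 37051 of 37336 identifiers matched that reference. DESeq2 1.42.0 was an alternative. The fits were tested on simulated counts with known 4-fold changes. That check does not cover changes as small as those of the members between genotypes in total RNA. No 2 libraries held identical counts.

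The text names all 5 members, ALY1, called genes of the 4 lists, SHH2, NRPD1, RDR2 and the methylation targets, and for correlations the closest genes. List genes at an unadjusted p below 0.05 between genotypes in total or cytoplasmic RNA are named too. Members and lists were chosen with earlier results of these data known.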

Additional observations from a re-analysis of the deposited data

How the results depend on the processing

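CLSY1 and CLSY3 kept their nuclear excess, and its call, in both genotypes under every alternative run: other size factors, DESeq2, no filter, nuclear genes only, unrounded counts, a replicate block, all 14 libraries in 1 fit and each library left out. No alternative but the loss of aly1-2 total replicate 1 called a member between genotypes (0 to 1 members in total RNA). The counts over all genes, taken in either direction, moved more. In total RNA, 97 calls became 553 with DESeq2, 428 with no filter and 41 with all 14 libraries in 1 fit, and 16 to 1639 without 1 library. In nuclear RNA, 8 became 32, 143 and 17, and 3 to 157. In cytoplasmic RNA, 3 became 45, 175 and 204, and 0 to 52. Between fractions, all 14 libraries in 1 fit gave 7714 calls in aly1-2 and 7785 in wild type, and leaving out 1 library gave 1767 to 3997 and 1610 to 4168. The genotype difference of that fold gave 5 with no filter and 0 to 3 without 1 library. The cause was not tested.

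Without 1 library these log2 fold changes took either sign. For aly1-2 over wild type, CLSY4 ran from -0.08 to 0.11 in total RNA. In nuclear RNA, CLSY1 ran from -0.01 to 0.5, CLSY2 from -0.36 to 0.32, CLSY4 from -0.23 to 1.21 and SHH1 from -0.21 to 0.24. In cytoplasmic RNA, CLSY1 ran from -0.78 to 1.12, CLSY2 from -1.29 to 3.74, CLSY4 from -1.08 to 0.53 and SHH1 from -0.33 to 0.62. For nuclear over cytoplasmic RNA, CLSY2 ran from -1.74 to 3.29 and CLSY4 from -0.08 to 1.33 in aly1-2, and CLSY4 from -0.96 to 0.7 in wild type. For the genotype difference of that fold, CLSY1 ran from -0.89 to 1.01, CLSY2 from -3.81 to 1.22, CLSY3 from -0.82 to 0.22 and SHH1 from -0.66 to 0.29.

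Replicate numbers were not taken to pair the libraries. Deviations of same-numbered total libraries correlated at -0.12, -0.28 and 0.3, and not every library correlated best with its own number. Between genotypes the correlation was 0.21 in nuclear and -0.04 in cytoplasmic RNA, and between fractions 0.26 in aly1-2 and 0.04 in wild type, each from 2 libraries a group. With the replicate block, total, nuclear and cytoplasmic calls were 20, 19 and 9, and CLSY2 in nuclear RNA changed sign to 0.13. Depth limits CLSY2 and CLSY4 most, with 1 to 24 and 4 to 10 reads per cytoplasmic library.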
